A study of Mus musculus with 16 samples.

Results

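The 9 cholesterol synthesis enzymes *Hmgcs1*, *Mvd*, *Idi1*, *Fdps*, *Fdft1*, *Sqle*, *Lss*, *Cyp51* and *Dhcr7* were followed across the cell types of the neonatal mouse testis. They were taken by name from the rows of the count table and are 9 of its 30451 genes. The rule that names them uses no measured value, although earlier results of these data were known when they were picked. Cholesterol is built from acetyl-CoA through mevalonate, the isoprenoid farnesyl diphosphate, squalene and lanosterol, and each of the 9 genes encodes an enzyme of that route. The pathway is best known for its control by SREBP2, a transcription factor that is held in the endoplasmic reticulum while sterols are plentiful and released when they are scarce. Leydig cells, the steroid-making cells between the testis cords, use cholesterol as the substrate for androgens, and can obtain it from lipoproteins or make it themselves.

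Whole testes of mice at postnatal day 2 were dissociated with TrypLE into single cells, and RNA was counted by droplet sequencing with the 10x 3′ chemistry. Wild-type testes were compared with testes labelled as a *Ddx5* conditional knockout, in which floxed *Ddx5* alleles were combined with a Cre driven by the *Mvh* promoter, which acts in germ cells. A GFP driven by *Oct4* marks germ cells, and both GFP and CRE were added to the counting reference. The question the study put to these libraries was what loss of the RNA helicase DDX5 does to germ cells. Knockouts came from males with a deleted allele and females with floxed alleles, so that somatic cells of the testes labelled knockout can carry alleles that wild type lacks.

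GEO lists 8 samples of each genotype, but cell barcodes carry no sample number, so each genotype counts as 1 library. By the sample titles, 4 samples of each genotype shared a sequencing lane and the other 4 ran in a lane of that genotype alone, and since barcodes carry no lane either, lane and genotype cannot be told apart here. The wild-type library held 84263163 UMIs (unique molecular identifiers, counted RNA molecules) and the library labelled *Ddx5* knockout, the knockout-labelled library, 67558106. A cell was kept if it had 2000 genes or more and no more than 10% of its UMIs from mitochondrial genes, which left 6329 and 4950 cells, and 12 cell barcodes occurred in both libraries. CRE was counted 20 times in the knockout-labelled library and 0 times in wild type. In germ cells the targeted gene *Ddx5* was at 1228 CPM (UMIs per 1000000 UMIs of the summed cells) in wild type. It was at 1736 CPM in the knockout-labelled library, a ratio of 1.41 (95% interval 1.31 to 1.53) against the direction of the label. This ratio rests on 12 germ cells of that library, where the median ratio of all genes was 0.573. Whether these counts register the deletion in floxed alleles was not tested, and the label is kept as a name. By single-cell qRT-PCR the study itself reported a strong fall of the targeted mRNA in sorted knockout germ cells. In the direction of the label, GFP was counted 456 times in wild type but 22 times in the knockout-labelled library, and the germ gate held 1.30% and 0.242% of cells. In somatic gates *Ddx5* was lower in the knockout-labelled library, at ratios of 0.878 (0.819 to 0.941) in Leydig cells, 0.881 (0.846 to 0.918) in myoid cells, 0.903 (0.883 to 0.923) in stroma and 0.95 (0.935 to 0.966) in Sertoli cells.

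Cells were gated on a few transcripts, none of them a member. The Leydig gate, at least 20 UMIs of *Cyp11a1*, *Cyp17a1* and *Hsd3b1* together, held 164 cells in wild type and 128 in the knockout-labelled library. In the same order, the Sertoli gate (at least 3 UMIs of *Amh*) held 2172 and 1599 cells, the myoid gate (at least 5 of *Acta2* and 2 of *Myh11*) 721 and 500, the stroma gate (at least 1 of *Pdgfra* and at most 2 of *Amh*) 2857 and 2491, the macrophage gate (at least 5 of the C1q genes) 24 and 18, and the germ gate (at least 3 of *Dazl*, *Ddx4*, *Mael* and *Stk31*) 82 and 12. Cells that passed more than 1 gate other than stroma, 135 in all, were left out, and stroma held only cells in no other gate. In the germ gate this took the cells of wild type from 125 to 82 and left all 12 of the knockout-labelled library. Of the marker genes that did not set a gate, 5 of 5 Sertoli, 3 of 3 myoid, 5 of 5 stroma and 4 of 4 macrophage genes were called higher in their own gate. For Leydig cells it was 2 of 3, the exception being *Hsd17b3*, which converts androstenedione to testosterone. *Hsd17b3* was at 1.5 and 2.46 CPM in the Leydig gate and at 326 and 316 CPM in the Sertoli gate, so the Leydig gate carries the early steroid enzymes and *Insl3* (1319.6 and 793 CPM) without this last step. Some markers were also called higher in another gate. In stroma these were 5 of 5 myoid and 2 of 3 fitted endothelial markers, against 31.0% of all genes. In myoid cells they included 4 of 6 stroma markers, against 29.3% of all genes.

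UMIs were summed per gate and library and scaled to CPM. CPM values are set side by side between gates and never between genes, and all intervals cover counting error only. All 9 enzymes were higher in the Leydig gate than in the mean of the other 4 somatic gates. The 9 together took up 2930.0 CPM of Leydig RNA in wild type and 2515 CPM in the knockout-labelled library. The stroma followed at 669 and 709 CPM, the myoid cells at 458 and 509.7 CPM, the Sertoli cells at 309 and 303 CPM and the macrophages at 79.7 and 244 CPM. The neighbours in this order of the summed level did not overlap between their libraries. Germ cells, kept apart because the deletion is meant to act in them, stood at 1035 and 402 CPM.

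**Figure D1:**
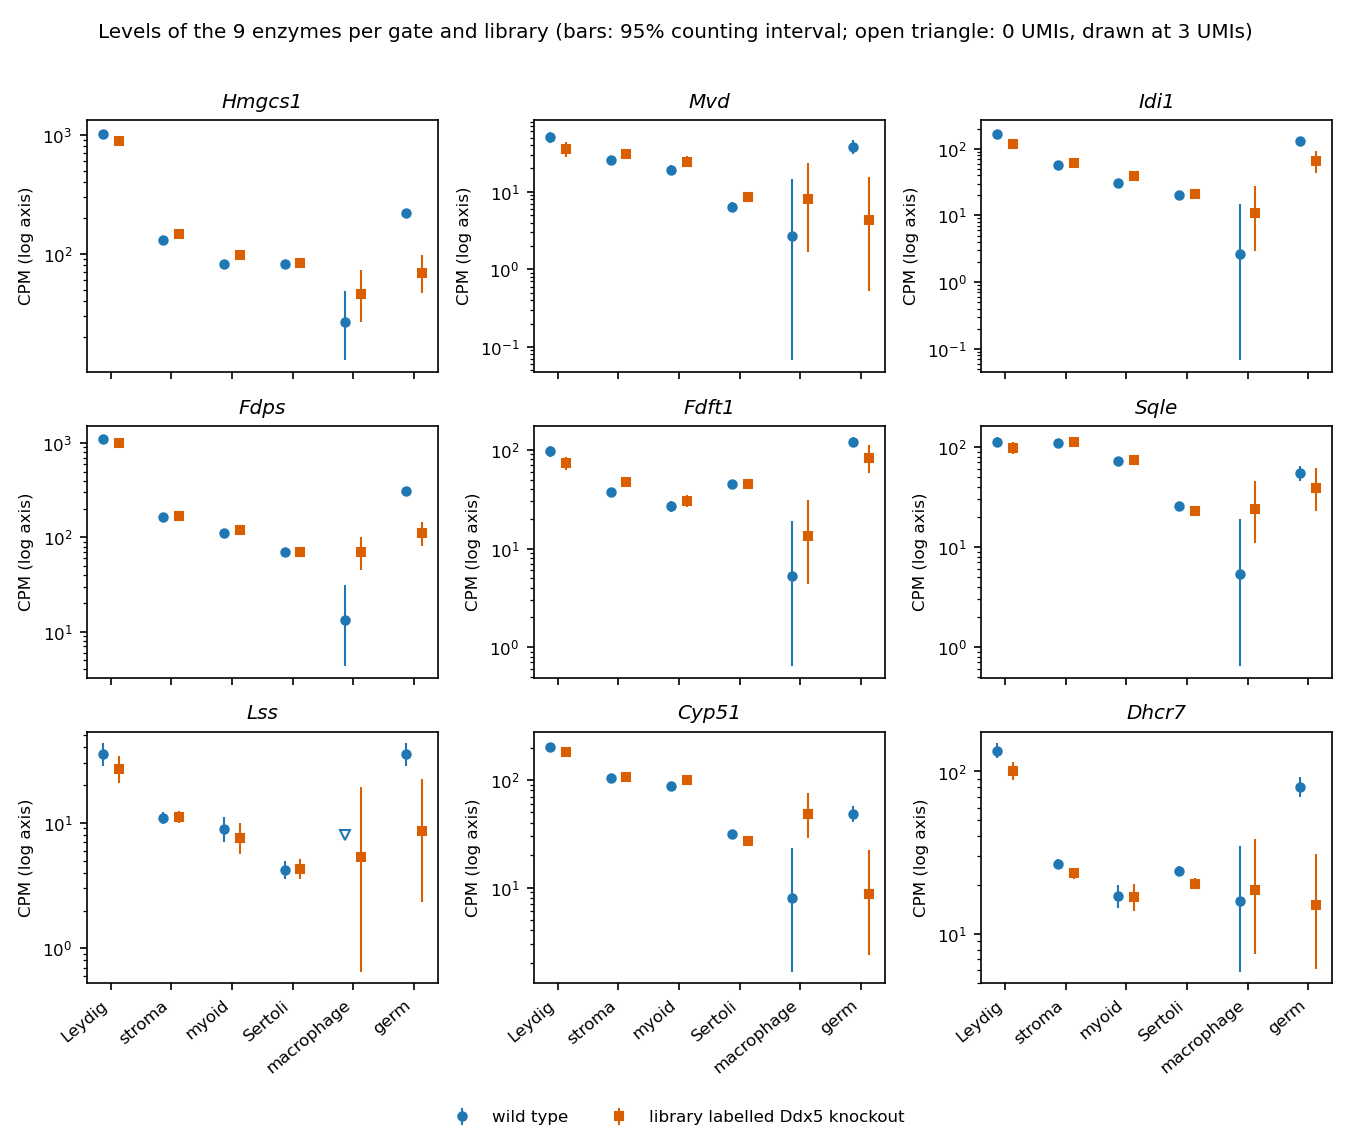
Levels of the 9 enzymes in each gate, with CPM on a log axis, 1 point per library (wild type and the knockout-labelled library) and bars for exact 95% Poisson intervals. Of the somatic gates, Leydig cells lie highest for every enzyme except *Sqle*, where stroma and Leydig points overlap, and the open triangle marks *Lss* at 0 UMIs in macrophages of wild type, drawn at 3 UMIs.

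SREBP2 acts from promoters together with the factors NF-Y and Sp1, so the 150 bases before the RefSeq start are shown for members with an annotated window (RefSeq, GRCm38.p6, sense strand, 5′ to 3′). Windows were found for 6 of the 9 genes. Capitals mark CCAAT, the NF-Y box, or its reverse complement, and in *Hmgcs1* also TCACNCCAC, a sterol regulatory element core. The positions are chr13:119690201-119690350 (plus strand) for *Hmgcs1*, chr8:122443423-122443572 (minus) for *Mvd*, chr13:8885456-8885605 (plus) for *Idi1*, chr10:76531455-76531604 (plus) for *Lss* and chr5:4104698-4104847 (minus) for *Cyp51*. The gene positions given further on are those of GENCODE, whose starts differ for these genes other than *Mvd*. The windows thus reach 105 bases into the GENCODE locus of *Idi1*, 17 into that of *Lss* and 49 into that of *Cyp51*.
Hmgcs1: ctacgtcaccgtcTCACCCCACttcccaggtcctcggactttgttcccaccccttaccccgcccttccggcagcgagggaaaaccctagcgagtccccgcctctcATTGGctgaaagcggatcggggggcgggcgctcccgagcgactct
Mvd: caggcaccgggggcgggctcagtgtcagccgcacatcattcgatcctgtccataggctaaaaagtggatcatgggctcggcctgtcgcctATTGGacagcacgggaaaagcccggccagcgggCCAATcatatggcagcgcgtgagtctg
Idi1: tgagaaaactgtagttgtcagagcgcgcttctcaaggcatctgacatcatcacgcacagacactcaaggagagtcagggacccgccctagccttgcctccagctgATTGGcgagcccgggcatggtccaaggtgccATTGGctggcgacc
Lss: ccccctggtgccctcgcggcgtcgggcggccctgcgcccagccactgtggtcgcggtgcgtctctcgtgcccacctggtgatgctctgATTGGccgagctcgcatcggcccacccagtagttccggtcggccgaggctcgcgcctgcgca
Cyp51: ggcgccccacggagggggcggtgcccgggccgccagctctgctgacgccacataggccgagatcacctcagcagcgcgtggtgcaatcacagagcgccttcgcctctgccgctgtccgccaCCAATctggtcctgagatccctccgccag

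Each of these 5 windows held CCAAT on 1 strand or the other, nearest to the start at 45 bases before it in *Hmgcs1*, 27 in *Mvd*, 14 in *Idi1*, 62 in *Lss* and 29 in *Cyp51*. *Dhcr7* has 3 annotated starts, and the window of the third also held it. CCAAT was thus present in 6 of the 8 windows of these 6 genes, against 24.5% of all 32851 windows of that length, and in 9 of 11 windows of the other cholesterol enzymes. GGGCGG, the Sp1 box, was present in 7 of 8 windows, against 28.6% of all and 8 of 11 of the other enzymes. TCACNCCAC was found in the *Hmgcs1* window alone, starting 137 bases before the start, against 0.639% of all windows and 0 of 11 of the other enzymes. CACGTG, the E-box, was in 0 of 8, against 4.29% of all windows and 2 of 11 of the other enzymes. All searches covered both strands, and a match describes letters in the window and not binding.

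The first enzyme, *Hmgcs1* (chr13:119690379-119708260), joins acetoacetyl-CoA and acetyl-CoA to HMG-CoA in the cytosol. It was at 1027 CPM in Leydig cells of wild type and 889 CPM in those of the knockout-labelled library, and all later pairs keep this order. Stroma followed at 132 and 147 CPM, myoid cells at 81.6 and 97.1, Sertoli cells at 82.1 and 84.0 and macrophages at 26.6 and 45.6. The Leydig mean was thus 6.88 times the stroma mean, and only the myoid and Sertoli values overlapped.

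*Mvd* (chr8:122433601-122443422) removes the carboxyl group that turns the diphosphate of mevalonate into the first isoprenoid unit. It was at 50.3 and 35.2 CPM in Leydig cells, at 25.9 and 30.7 in stroma, 19.3 and 24.4 in myoid cells, 6.41 and 8.49 in Sertoli cells and 2.66 and 8.04 in macrophages. The Leydig and stroma values did not overlap, but within the knockout-labelled library the Leydig to stroma ratio was 1.15 (0.908 to 1.44), an interval that holds 1. *Idi1* (chr13:8885501-8892451), which interconverts the pair of isoprenoid units, was at 165 and 119 CPM in Leydig cells. It was at 56.3 and 60.8 CPM in stroma, 30.5 and 39.3 in myoid cells, 19.9 and 21.2 in Sertoli cells and 2.66 and 10.7 in macrophages, an order without overlap.

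*Fdps* (chr3:89093588-89101959) makes farnesyl diphosphate, the branch point to sterols, prenylated proteins, dolichol and ubiquinone. It was at 1109.6 and 993 CPM in Leydig cells, against 166 and 170.0 in stroma, 112 and 120.1 in myoid cells, 69.9 and 69.2 in Sertoli cells and 13.3 and 69.7 in macrophages. The Leydig mean was 6.26 times the stroma mean. As a share of the Leydig level, both *Fdps* and *Hmgcs1* fell off more steeply towards the next gate than the other 7 enzymes did.

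*Fdft1* (chr14:63145150-63179578), squalene synthase, commits farnesyl diphosphate to sterols. It was at 96.9 and 73.4 CPM in Leydig cells, 44.7 and 45.4 in Sertoli cells, 37.6 and 47.3 in stroma, 26.7 and 30.1 in myoid cells and 5.32 and 13.4 in macrophages. It was the only member whose second place was held by Sertoli cells, and the Sertoli and stroma values overlapped. *Sqle* (chr15:59315077-59331192), the epoxidase that follows and a rate-limiting step of the sterol arm, was the only member for which Leydig cells did not come first. Its values were 109 and 112 CPM in stroma, 111 and 98.0 in Leydig cells, 73.0 and 73.6 in myoid cells, 25.7 and 23.1 in Sertoli cells and 5.32 and 24.1 in macrophages. The Leydig to stroma ratio of *Sqle* was 1.02 (0.899 to 1.14) in wild type and 0.874 (0.762 to 0.997) in the knockout-labelled library, so the order of these gates was not settled by the data.

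*Lss* (chr10:76531588-76557138) closes squalene epoxide into lanosterol, the first sterol. It was at 34.9 and 26.6 CPM in Leydig cells, 10.9 and 11.1 in stroma, 8.85 and 7.58 in myoid cells and 4.21 and 4.26 in Sertoli cells. Macrophages held 0 UMIs of *Lss* in wild type, where 3 UMIs would be 7.97 CPM, and 5.36 CPM in the knockout-labelled library. *Cyp51* (chr5:4081145-4104746), the lanosterol demethylase, was at 201 and 179.9 CPM in Leydig cells, 105 and 106 in stroma, 88.7 and 101 in myoid cells, 31.2 and 27.3 in Sertoli cells and 7.97 and 48.2 in macrophages. *Dhcr7* (chr7:143823145-143848410), the reductase of the last step to cholesterol, was at 135 and 101 CPM in Leydig cells, 26.8 and 23.6 in stroma, 24.6 and 20.5 in Sertoli cells, 17.1 and 16.9 in myoid cells and 15.9 and 18.8 in macrophages. Leydig values of *Lss*, *Cyp51* and *Dhcr7* lay above those of every other somatic gate, at 2.79, 1.81 and 4.67 times the stroma mean. Stroma and Sertoli values of *Dhcr7* overlapped, as did its myoid and macrophage values, and the Sertoli and macrophage values of *Mvd*, *Fdps*, *Sqle*, *Lss* and *Cyp51*.

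The gates were compared in a single fit of 10 sums, 5 somatic gates in each of the 2 libraries, with edgeR's quasi-likelihood test over 15538 genes, so that p-values measure only the spread between sums. The 5 comparisons share these sums and are not independent. All 9 enzymes were called higher in the Leydig gate, where 27.2% of all genes were called higher and 20.9% lower. Their median log2 difference was 2.45, against 0.07 over all genes. The largest differences were those of *Hmgcs1* (log2 difference 3.62, SE 0.08, adjusted p 1.44e-15) and *Fdps* (3.60, SE 0.10, adjusted p 3.49e-14). *Idi1* (2.64), *Dhcr7* (2.54) and *Lss* (2.45) stood in the middle. *Cyp51* (1.84), *Mvd* (1.80), *Fdft1* (1.69) and *Sqle* (1.34, SE 0.13, adjusted p 1.63e-07) differed least. Between 4.74% and 17.2% of all genes had a larger Leydig difference than a given member. Each of the 9 remained called higher under all 11 alternatives that gave a test, and in each library alone their differences ran from 1.03 to 4.03.

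**Figure D2:**
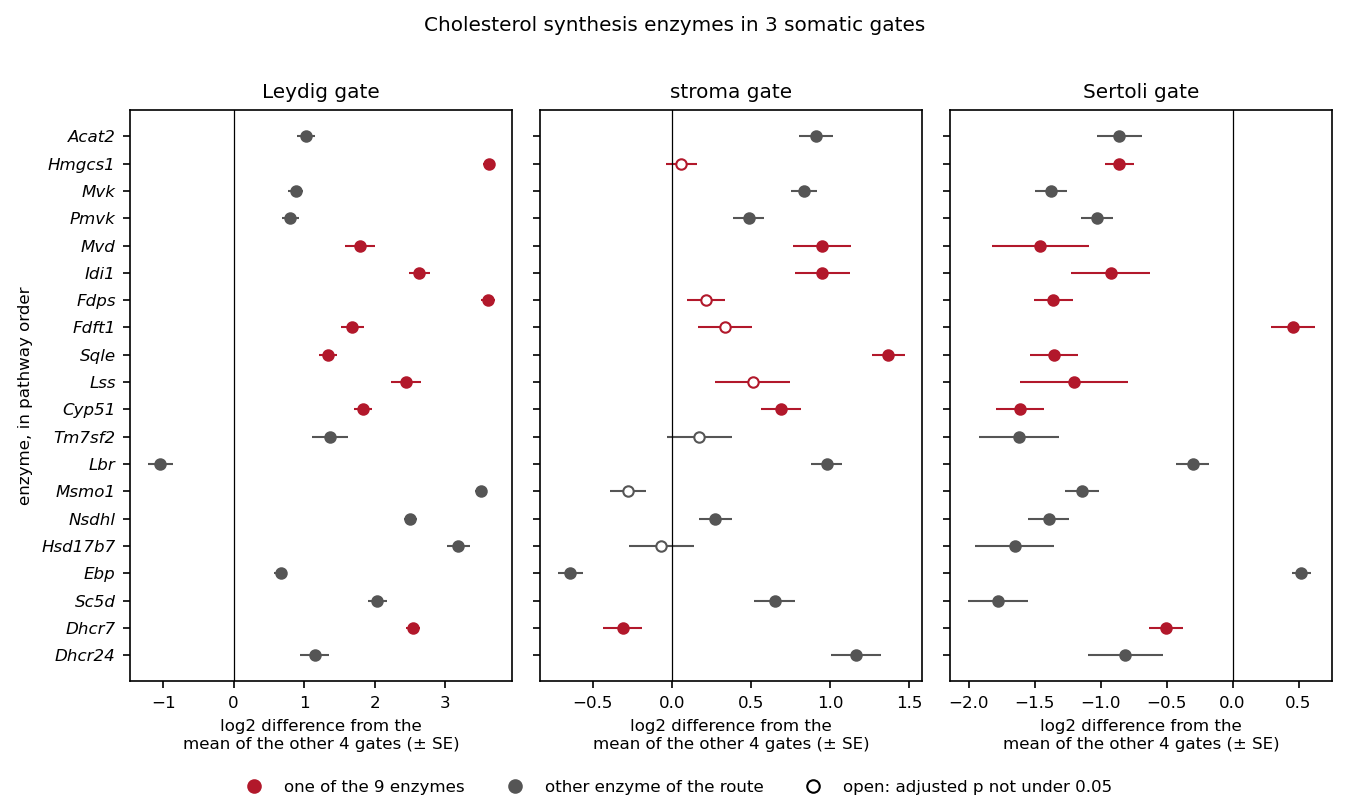
Log2 difference of the 9 enzymes (red) and 11 of the 12 others of the route (grey), in pathway order, in the Leydig, stroma and Sertoli gates against the mean of the other 4 gates, with bars of 1 SE and open points where the adjusted p was not under 0.05. All 9 red Leydig points lie above 0, from 1.34 to 3.62, and 8 of the 9 lie below 0 in Sertoli cells.

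In Sertoli cells, which nurse germ cells inside the cords, 8 enzymes were called lower and 1 higher, against 22.2% and 34.4% of all genes. The lower calls numbered 4 with cells thinned to 3000 UMIs and 5 without macrophages holding *Pdgfra*. The Sertoli differences of the lower members ran from -1.61 (*Cyp51*) to -0.51 (*Dhcr7*), and the median of the 9 was -1.20, against 0.14 over all genes. *Fdft1*, squalene synthase, was the 1 called higher (log2 difference 0.46, adjusted p 0.0255 by edgeR), and this call was lost under 4 of the alternatives, with a difference below 0 when macrophages were left out. *Lss* (-1.20) turned positive in Sertoli cells with cells thinned to 3000 UMIs and without macrophages holding *Pdgfra*. In each library alone its Sertoli difference was -0.09 in wild type and -1.27 in the knockout-labelled library. In myoid cells, the contractile cells around the cords, 2 enzymes were called higher and 3 lower, against 29.3% and 20% of all genes. The higher ones were *Sqle* (0.66) and *Cyp51* (0.53), the lower ones *Dhcr7* (-0.99), *Hmgcs1* (-0.70) and *Fdps* (-0.41). The lower calls numbered 0 with cells thinned and 6 with macrophages left out. *Fdps* was also not called in myoid cells with DESeq2 (adjusted p 0.199) or without macrophages holding *Pdgfra* (adjusted p 0.236 by edgeR). The higher call of *Cyp51* in myoid cells was lost with DESeq2 (adjusted p 0.0586). *Mvd* (0.51, not called) was called higher there with doublets removed, without the filter on low counts or without macrophages holding *Pdgfra*.

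In stroma 4 enzymes were called higher and 1 lower, against 31.0% and 19.4% of all genes. The higher calls numbered 7 with cells thinned, without TMM, without the filter on low counts or without macrophages holding *Pdgfra*. They were *Sqle* (1.37), *Idi1* (0.95), *Mvd* (0.95) and *Cyp51* (0.69), and the lower one was *Dhcr7* (-0.31, adjusted p 0.0443 by edgeR), a call lost under 8 alternatives. *Hmgcs1* (0.06) and *Fdps* (0.22), the members with the largest Leydig differences, were not called in stroma, though both were called higher there with cells thinned (0.73 and 0.60) and lower with macrophages left out (-0.49 and -0.30). In macrophages all 9 differences were below 0, so that neither edgeR nor DESeq2 called any member higher at any p, and 6 were called lower, against 15.4% and 16.8% of all genes. These were *Hmgcs1*, *Idi1*, *Fdps*, *Fdft1*, *Sqle* and *Cyp51*, from -2.70 (*Idi1*, on 1 and 4 UMIs) to -1.44 (*Cyp51*, on 3 and 18 UMIs). The lower calls numbered 5 to 8 under the alternatives, with *Idi1* lost with cells thinned (adjusted p 0.162 by edgeR) and *Mvd*, *Lss* or *Dhcr7* gained under some. Macrophage sums are small, and those of the knockout-labelled library held 5 of 18 cells with a *Pdgfra* UMI against 2 of 24 in wild type. *Pdgfra* stood at 107 against 26.6 CPM, *Dcn* at 498 against 157 CPM and *Dlk1* at 531 against 136 CPM there, and the part of stroma RNA in the macrophage values was not tested. Without these cells or without the macrophage sums all 9 Leydig calls stood, while Sertoli, myoid and stroma counts changed.

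The other 12 enzymes of the route were mostly higher in Leydig cells too, with 11 called higher and 1 lower and a median log2 difference of 1.26. The highest were *Msmo1*, the sterol methyl oxidase after *Cyp51* (3.51), and *Hsd17b7*, a sterol ketoreductase (3.19). The lowest was *Lbr*, a sterol reductase that is also a protein of the nuclear envelope (-1.04). In Sertoli cells 11 of the 12 were called lower and 1 higher, in stroma 7 higher and 2 lower, in myoid cells 3 higher and 4 lower, and in macrophages 1 higher and 5 lower.

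Genes around the pathway were counted in the same Leydig comparison, where the list was chosen by function. Of 9 genes of the isoprenoid branch, which leaves at farnesyl diphosphate, 3 were called higher and 2 lower, with a median log2 difference of 0.06, next to the 0.07 of all genes. *Pdss2* (0.90) and *Coq2* (0.66), both of ubiquinone synthesis, were highest and *Fntb* (-0.76), a subunit of farnesyltransferase, lowest. Of 10 sterol sensing genes 6 were called higher and 1 lower, led by *Scap* (2.83), the escort of SREBPs, and *Insig2* (1.0), with *Mylip*, which marks the LDL receptor for degradation, lowest at 4 and 1 UMIs in Leydig cells, too few for a fold. Of 12 genes of cholesterol uptake and transport 11 could be fitted, 7 higher and 3 lower. *Abca1* (3.42), an exporter, and *Scarb1* (2.55), the HDL receptor, were highest and the exporter *Abcg1*, at 1 UMI per library in Leydig cells, lowest.

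Of 5 genes of cholesterol ester storage 4 could be fitted, 3 called higher and 1 lower. *Nceh1* (3.87) and *Lipe* (3.05), which hydrolyse esters, were highest, and *Plin2* (-0.68), a coat protein of lipid droplets, lowest. All 9 steroid synthesis genes were called higher, from *Por* (1.48) to *Cyp11a1* (10.48) and *Cyp17a1* (11.06), but 3 of them set the gate. Of 10 fatty acid synthesis genes 9 were called higher by edgeR and none lower, also at an unadjusted p under 0.05, with a median of 2.25. The desaturase *Fads2* (5.06) and the malic enzyme *Me1* (2.94) were highest, and *Fasn*, fatty acid synthase (-0.36, adjusted p 0.106 by edgeR), was lowest and not called. All 5 cycling genes were called lower, from *Cdk1* (-3.48) and *Top2a* (-3.52) to *Ube2c* (-4.17).

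Markers of other cell types were low in the Leydig gate with a few exceptions. Of 6 Sertoli markers 2 were called higher, *Dhh* (1.82) and *Rhox8* (1.16), and 3 lower, with *Sox9* at -2.96. Stroma markers were called lower in 6 of 6 (*Lum* -1.80, *Ogn* -1.85, *Tcf21* -2.43), myoid markers in 4 of 5 (*Myh11* -2.05, *Tagln* -3.17), with *Cnn1* at 1 UMI per library and not called, and macrophage markers in 5 of 7. In Leydig cells of both libraries together *C1qa* had 0 UMIs, *C1qb* 1 and *Tyrobp* 2, too few for a fold. None of the 6 germ cell markers could be fitted, and of 3 fitted endothelial markers *Cdh5* was called lower (-0.87), *Pecam1* was not called on 2 and 3 UMIs and *Emcn* gave no usable estimate. Of 5 erythroid markers none was called by edgeR in either direction, and none had an unadjusted p under 0.05, although *Hba-a1* had 1 UMI in wild type and 737 in the knockout-labelled library.

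The profile of the members over the 10 sums was close to 1 pattern. The Pearson correlation of a member with the mean of the 9, in log2(CPM + 10), ran from 0.862 (*Dhcr7*) and 0.868 (*Sqle*) to 0.992 (*Idi1*), with each member part of the mean it was set against. Among 6826 other genes with a mean of at least 20 CPM, the profiles most like that mean were those of *Acadsb* (0.988) and *Acaa2* (0.984), mitochondrial enzymes of branched amino acid and fatty acid breakdown, *2310039H08Rik* (0.981), *Ccnh* (0.979), a cyclin of the transcription factor TFIIH, and *Brms1l* (0.976). Of the other enzymes of the route 11 were ranked, from *Nsdhl*, a sterol dehydrogenase, at 9 and *Sc5d*, a sterol desaturase, at 22 to *Acat2* at 503, *Ebp* at 3992 (0.018) and *Lbr* at 4214 (-0.032). These correlations are over 5 gates in 2 libraries and describe the order of gates only.

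Cell by cell, with every cell thinned to 3000 UMIs, a Leydig cell held a median of 7 UMIs of the 9 enzymes in wild type (range 0 to 37) and 6.5 in the knockout-labelled library (range 1 to 29), from a median of 3 different members. The median was 1 UMI in Sertoli, myoid and stroma cells. Cells without any UMI of the 9 made up 3.05% and 0% of Leydig cells, the latter 0 of 128. They made up 32.7% and 34.3% of stroma cells, 40.1% and 41.2% of myoid cells, 45.4% and 47.3% of Sertoli cells, and 87.5% and 72.2% of macrophages. The spread within a gate was wide, since stroma cells reached 24 and 18 UMIs and so overlapped the Leydig range.

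**Figure D3:**
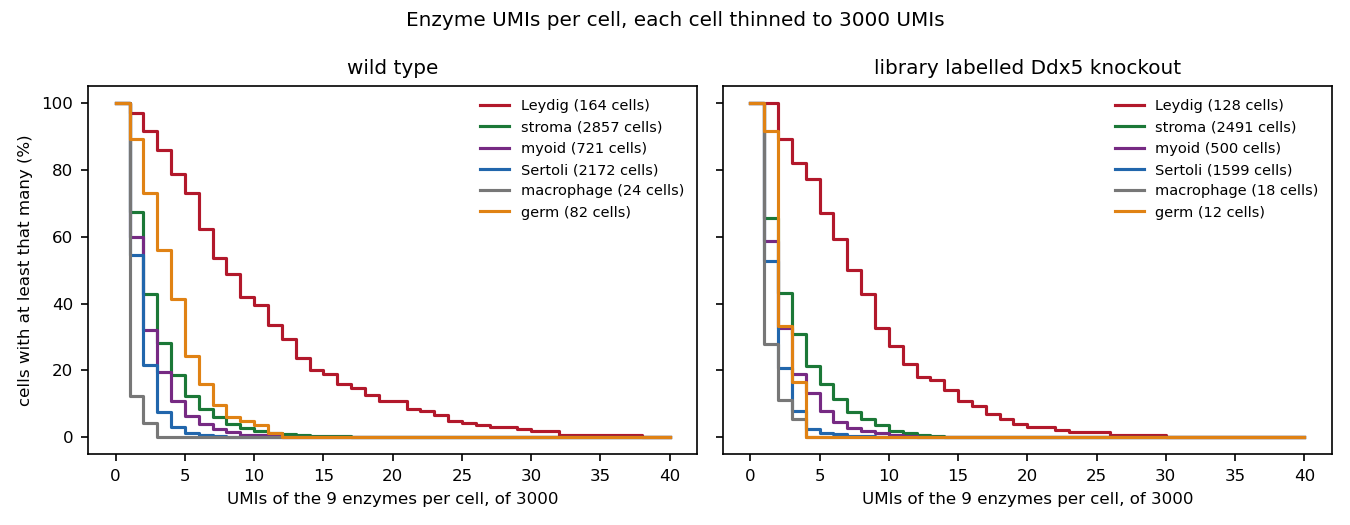
Percent of cells of each gate that hold at least the number of UMIs of the 9 enzymes given on the horizontal axis, after thinning to 3000 UMIs, for wild type (left) and the knockout-labelled library (right). The Leydig line lies to the right of all others, with medians of 7 and 6.5 UMIs, while the medians of Sertoli, myoid and stroma cells are at 1.

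*Fdps* was found in 88.4% and 82.0% of Leydig cells, against 30.8% and 33.5% of stroma and 17.1% and 16.8% of Sertoli cells. *Hmgcs1* was found in 77.4% and 81.2% of Leydig cells, against 27.7% and 28.5% of stroma and 19.3% and 21.1% of Sertoli cells. At the other end, *Lss* was found in 7.32% and 9.38% of Leydig cells and in 2.77% and 3.17% of stroma. For *Sqle* the shares were 25% and 24.2% of Leydig cells and 25.4% and 25.5% of stroma, closer than at other depths. At 5000 UMIs *Sqle* was found in 42.1% and 38.6% of Leydig cells and 36.2% and 35.8% of stroma, and without thinning in 76.2% and 77.3% against 52.6% and 51.9%. All of these shares rise with depth, and without thinning *Lss* was found in 34.8% and 33.6% of Leydig cells and 9.63% and 10.2% of stroma. RNA set free from Leydig cells is a possible background for such shares. *Insl3*, a Leydig hormone, stood in the Sertoli, myoid and stroma gates at 0.0379% to 0.223% of its Leydig level, with upper 95% limits of up to 0.275%. A background at these upper limits would make up at most 2.14% of any member's level there. With *Lhcgr*, the receptor for luteinising hormone, in place of *Insl3* the upper limits reached 0.865% and the bound was 6.95%. In the macrophage gate the bound was 62.0% and 24.3% with *Insl3*, and 389% and 80.1% with *Lhcgr*. In germ cells it was 0.751% and 20.9% with *Insl3*, and 3.12% and 104% with *Lhcgr*. These bounds cover members with a UMI and rest on 0 or 1 UMIs of the marker. Background was thus not bounded closely in macrophages or in germ cells of the knockout-labelled library.

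Within a gate, cells with more UMIs of the members also held more of the other 12 enzymes, most clearly in Leydig cells and stroma. With cells thinned to 5000 UMIs, Spearman's rho was 0.585 over 164 Leydig cells of wild type and 0.619 over 127 of the knockout-labelled library. It was 0.536 and 0.540 in stroma, 0.365 and 0.450 in myoid cells, and 0.133 and 0.0858 in Sertoli cells. Against the isoprenoid branch rho was 0.0414 and -0.203 in Leydig cells, and against fatty acid synthesis 0.420 and 0.180. In Leydig cells rho of the members with the UMIs of the cell before thinning was -0.0281 and -0.0180. Cells of a library share their preparation and depth, and these values are descriptions without a test.

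Cycling cells, those with at least 3 UMIs of the cycling list, were set against cells with 0 within a gate. In stroma the sum of the 9 was lower in cycling cells, at 0.908 times the level of other cells in wild type (0.879 to 0.938) and 0.830 times in the knockout-labelled library (0.801 to 0.859). *Mvd*, *Fdps*, *Sqle* and *Lss* followed this in both libraries, with *Sqle* at 0.838 (0.771 to 0.909) and 0.866 (0.793 to 0.946). *Cyp51* and *Dhcr7* had intervals below 1 in the knockout-labelled library only, and the intervals of *Hmgcs1*, *Idi1* and *Fdft1* held 1 in both. In myoid cells the ratios of the sum were 1.05 (0.976 to 1.12) and 1.07 (0.987 to 1.15), and in Sertoli cells 1.10 (1.04 to 1.17) and 0.986 (0.920 to 1.06). Cycling cells were deeper in each of these gates, with medians of 13610 against 8917 UMIs in stroma of wild type, and thinning to 3000 UMIs changed which intervals held 1. Thinned, the stroma ratio was 0.932 (0.865 to 1.003) in wild type and 0.928 (0.855 to 1.006) in the knockout-labelled library. The thinned myoid ratio of the knockout-labelled library was 1.21 (1.01 to 1.45), and the thinned Sertoli ratio of wild type was 1.0 (0.900 to 1.11).

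Between the libraries there is 1 sum per gate and genotype, so that ratios are given with counting intervals and no test. In Leydig cells all 9 enzymes were lower in the knockout-labelled library than in wild type, where 51.6% of all genes were lower. The ratios, in pathway order, began with *Hmgcs1* at 0.866 (0.818 to 0.916), *Mvd* at 0.700 (0.528 to 0.925), *Idi1* at 0.725 (0.623 to 0.842) and *Fdps* at 0.895 (0.848 to 0.944). *Fdft1* was at 0.757 (0.622 to 0.919) and *Dhcr7* at 0.753 (0.637 to 0.888), whereas the intervals of *Sqle* at 0.881 (0.740 to 1.05), *Lss* at 0.762 (0.547 to 1.06) and *Cyp51* at 0.893 (0.786 to 1.02) held 1. The 5 ratios lower by over 1.25-fold compare with 11.5% of all genes, and the sum of the 9 was at 0.858 (0.830 to 0.888) of its wild-type level.

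**Figure D4:**
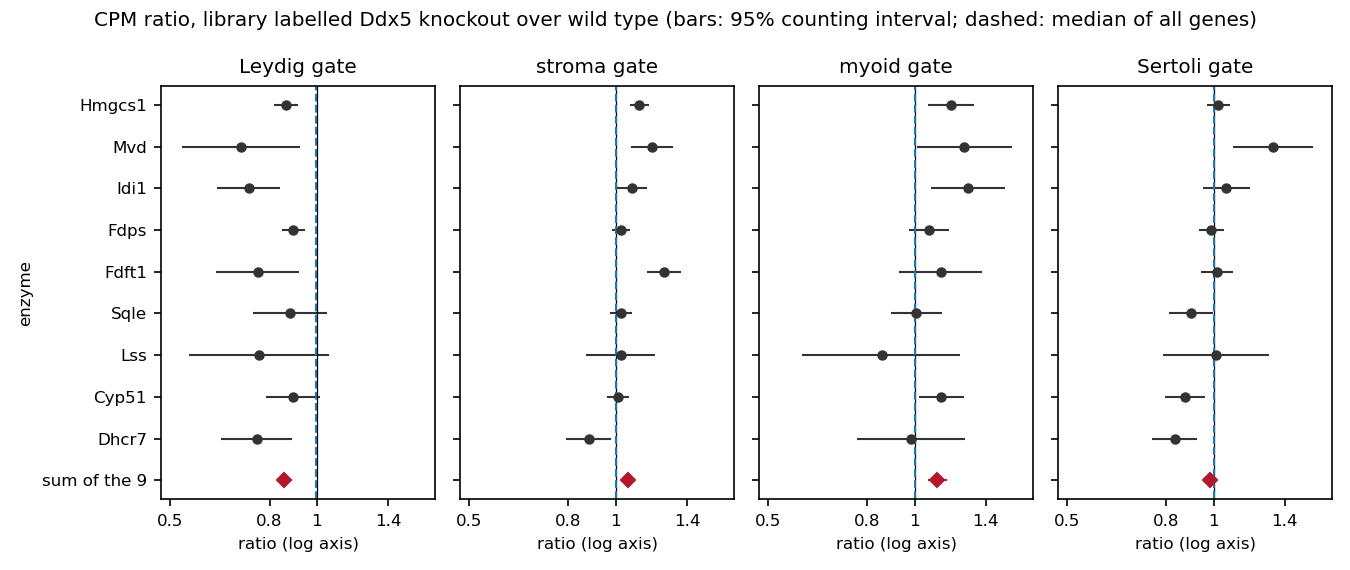
Ratio of CPM in the knockout-labelled library over wild type for each enzyme and for the sum of the 9 (diamonds) in the Leydig, stroma, myoid and Sertoli gates, on a log axis, with exact 95% counting intervals and a dashed line at the median of all genes. All 9 Leydig ratios lie below 1, from 0.700 to 0.895, while most stroma and myoid ratios lie above 1.

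The lower Leydig level was not shared by all genes of sterol handling. Of the other 12 enzymes 8 were lower, with a median ratio of 0.942 and a range from 0.600 to 1.18. *Msmo1* was at 0.744 (0.684 to 0.809). Of the 9 steroid synthesis genes 1 was lower and the median was 1.10, with *Star*, which brings cholesterol into mitochondria, at 1.24 (1.17 to 1.31). *Scarb1*, the HDL receptor, was at 1.20 (1.09 to 1.31), whereas the peptide hormone *Insl3* was at 0.601 (0.569 to 0.636). Erythroid transcripts were at 4.13 CPM in Leydig cells of wild type and 1667 CPM in those of the knockout-labelled library, and 3 cells held 99.5% of the latter. Leydig cells of the knockout-labelled library were also deeper, with a median of 17020.5 against 14600.0 UMIs per cell, and the part of depth was not tested beyond thinning, which gave a ratio of the sum of 0.822 (0.757 to 0.892). Thinned, 8 of the 9 ratios were below 1 and *Lss* was at 1.28 (0.566 to 2.90). Without the cells rich in erythroid transcripts the sum of the 9 in Leydig cells was at 0.857 (0.828 to 0.886) of the wild-type level and all 9 ratios were still below 1.

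In the Sertoli, myoid and stroma gates the sums of the 9 differed less between the libraries than in Leydig cells, apart from myoid cells under stricter gates (1.19). In Sertoli cells 4 of 9 were lower, against 49.1% of all genes, and 1, *Mvd* at 1.32 (1.10 to 1.60), was higher by over 1.25-fold, against 9.45% of all genes. In myoid cells 2 of 9 were lower, against 49.6%, and *Idi1* at 1.29 (1.08 to 1.53) and *Mvd* at 1.27 (1.01 to 1.58) were higher by over 1.25-fold, against 7.94%. In stroma 1 of 9 was lower, *Dhcr7* at 0.880 (0.790 to 0.979), against 50%, and *Fdft1* at 1.26 (1.16 to 1.36) was higher by over 1.25-fold, against 7.58%. The sum of the 9 was at 0.982 in Sertoli cells, or 0.943 (0.918 to 0.969) with gates as written, 1.11 (1.06 to 1.17) in myoid cells, or 1.03 (0.933 to 1.13) thinned, and 1.06 (1.04 to 1.08) in stroma. The counts of lower members depended on the setting. They were 6 thinned and 8 with gates as written in Sertoli cells, 4 thinned and 1 with stricter gates in myoid cells, and 2 with either thinning or gates as written in stroma.

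Markers of other cells also differed between the libraries in these gates. Erythroid transcripts summed to 157 and 334 CPM in Sertoli cells, 89.9 and 1167 CPM in myoid cells and 74.7 and 845 CPM in stroma. Without the cells rich in them the sum of the 9 was at 0.982 in Sertoli cells, 1.11 in myoid cells and 1.06 in stroma, with 4, 3 and 1 of 9 lower. The 7 macrophage markers summed to 4.27 and 48.8 CPM in stroma, where *Lyz2*, lysozyme, went from 0.888 to 39.9 CPM and the defining *C1qa*, *C1qb* and *C1qc* were each below 0.5 CPM in both libraries. Stroma markers summed to 435 and 654 CPM in Sertoli cells. The part of macrophage and stroma RNA in these ratios was not tested. The sum of the 9 lay further apart in the macrophage gate, at 79.7 CPM (53.8 to 114) and 244 CPM (196 to 299), where stroma markers went from 377 to 1244 CPM and erythroid markers from 4183 to 8.04 CPM, and in the germ gate, at 1035 and 402 CPM.

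In germ cells of wild type, *Hmgcs1* (219.6 CPM), *Fdps* (311 CPM) and *Dhcr7* (80.3 CPM) lay between the stroma and Leydig values. *Idi1* (129 CPM) and *Mvd* (37.7 CPM) lay within the range of the Leydig values, *Lss* (35.0 CPM) was level with the higher of them, *Fdft1* (119.5 CPM) lay above both Leydig values (96.9 and 73.4 CPM), and *Sqle* (54.4 CPM) and *Cyp51* (48.3 CPM) below the myoid values. The 12 germ cells of the knockout-labelled library had lower values of all 9, although the interval of the *Sqle* ratio of 0.714 (0.411 to 1.17) held 1. They were at 69.1 CPM of *Hmgcs1*, 4.32 of *Mvd*, 64.8 of *Idi1*, 110.1 of *Fdps*, 82.0 of *Fdft1*, 38.9 of *Sqle*, 8.63 of *Lss*, 8.63 of *Cyp51* and 15.1 of *Dhcr7*. All 9 were lower by over 1.25-fold, but 75.5% of all genes were lower and 65.5% lower by over 1.25-fold there. The median ratio was 0.315 for the members and 0.573 for all genes. *Pdgfra* was found in 4 of these 12 cells and in 16 of 82 in wild type, stroma markers summed to 421 against 288 CPM, germ cell markers to 1815 against 2962 CPM and cycling genes to 192 against 783 CPM, and their part in these values was not tested.

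Some values may hold reads of neighbours. In the GENCODE annotation of GRCm38, *Hmgcs1* overlaps *Gm48342*, *Idi1* *Gm48574*, *Fdft1* *Ctsb* and *Cyp51* *Akap9* on the opposite strand, and *Fdps* overlaps *Gm43738* on its own strand, and reads shared with a same-strand neighbour were not separated here. *Idi2*, the paralog of *Idi1*, had 0 UMIs in the somatic gates.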

How the data were processed

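The authors deposited UMI counts per gene and barcode, made with Cell Ranger 3.1.0 on GRCm38 per the labels' processing notes, which also name Seurat 3.1.5. No file pairs a barcode suffix with a genotype. Suffix 3 was taken as wild type and 4 as the library labelled *Ddx5* knockout, from the cell numbers the study states. The members and gene lists were chosen with earlier results of these data known. Cells were gated, summed and scaled to CPM with Python 3.11.15. Doublets called by Scrublet in scanpy 1.11.5 (284 and 296 cells) were kept. Sums were fitted in R 4.3.3 with edgeR 4.0.16 (gate and library as terms, TMM, filterByExpr, quasi-likelihood test, residual degrees of freedom 4), each gate against the mean of the other 4, with Benjamini-Hochberg adjustment over 15538 genes and a threshold of 0.05. DESeq2 1.42.0 was an alternative. Intervals at 95% are exact Poisson (sums), conditional binomial (ratios) or Clopper-Pearson (shares). Counts of genes between the libraries cover genes with at least 50 UMIs in the gate, a minimum that single ratios under alternatives need not meet. Other lists name the 2 highest and the lowest fitted gene in the Leydig comparison, and likeness names 5 genes. The fit was tested on simulated data. Alternatives added after seeing the data left out macrophages with *Pdgfra*, all macrophages, or cells with at least 10 erythroid UMIs. Values of some genes are not reported here.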

Additional observations from a re-analysis of the deposited data

Results flagged for a closer look

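The summed level of the 9 enzymes moved in opposite directions in different gates between the same libraries, but not every member moved with the sum. In stroma *Dhcr7* was at 0.880 (0.790 to 0.979), and the intervals of *Fdps*, *Sqle*, *Lss* and *Cyp51* held 1. In myoid cells *Lss* (0.855) and *Dhcr7* (0.983) lay below 1 with intervals that held 1, as did those of *Fdps*, *Fdft1* and *Sqle*. The sum of the 9 in the library labelled *Ddx5* knockout was at 0.858 of the wild-type level in Leydig cells. It was at 1.11 in myoid cells and 1.06 in stroma, with counting intervals that leave out 1 in each case. With cells thinned to 3000 UMIs the myoid ratio was 1.03 (0.933 to 1.13), an interval that holds 1. Erythroid transcripts went from 89.9 to 1167 CPM in myoid cells and from 74.7 to 845 CPM in stroma, and without the cells rich in them the ratios were 1.11 and 1.06. Macrophage markers went from 4.27 to 48.8 CPM in stroma, and their part was not tested. In the 24 and 18 macrophages the sum went from 79.7 to 244 CPM, beside stroma markers that went from 377 to 1244 CPM. With 1 library per genotype the difference between gates was not tested.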

How the results depend on the processing

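All 9 Leydig calls kept their direction and their side of the threshold under every alternative that gave a test, 99 of 99 values. No paired analysis was possible because barcodes carry no sample number, so that numbered samples could not be matched between genotypes, but library is a term of the fit, and dropping it moved no member count other than stroma lower calls. With 1 library left out no test remains, and the log2 differences of members ran from 1.03 to 4.03 in Leydig, -1.84 to 0.75 in Sertoli, -6.25 (*Lss*, 0 UMIs) to -0.55 in macrophage, -1.01 to 1.19 in myoid and -0.29 to 1.73 in stroma gates.

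Member counts in the other gates were less stable, and the cause was not tested. Sertoli higher calls fell from 1 to 0 with gates as written, DESeq2, DESeq2 size factors or macrophages left out, and lower calls from 8 to 4 with thinning to 3000 UMIs and to 5 without macrophages holding *Pdgfra*. Myoid higher calls were 1 with DESeq2 and lower calls 0 with thinning and 6 with macrophages left out. Stroma higher calls were 7 with thinning, no TMM, no filter or without macrophages holding *Pdgfra*. Stroma lower calls were 0 with thinning, doublets removed, stricter gates, DESeq2, no TMM, no filter, no library term or without macrophages holding *Pdgfra*, and 3 with macrophages left out. Called log2 differences that turned were those of *Fdft1* (-0.075, macrophages left out) and *Lss* (0.39 thinned, 0.89 without macrophages holding *Pdgfra*) in Sertoli cells and *Dhcr7* (0.026, thinned) in stroma. Uncalled ones turned too, with macrophages left out to -0.66 (*Idi1*) and -0.43 (*Lss*) in myoid cells and to -0.49 (*Hmgcs1*), -0.30 (*Fdps*) and -0.20 (*Fdft1*) in stroma, with gates as written for *Idi1* and *Lss* in myoid cells and *Hmgcs1* in stroma, with stricter gates for *Idi1*, with thinning for *Idi1* and *Fdft1*, and without wild type for *Lss*, the last 4 in myoid cells. Macrophage lower calls (6) ran from 5 to 8.

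Over all genes, thinning, which leaves fewer UMIs, gave 2313 higher and 1252 lower calls in Leydig cells (main 4222 and 3243), 1526 lower in Sertoli cells (3443), 2969 higher and 1158 lower in myoid cells (4556 and 3104), 1107 lower in stroma (3018), and 877 higher and 1100 lower in macrophages (2390 and 2618). With macrophages left out 4877 genes were lower in Leydig and 5366 in Sertoli cells, and with DESeq2 1693 were lower in macrophages. The median of all genes in macrophages was -0.43, -0.61 without TMM and -0.32 with DESeq2 size factors, and the higher share of calls there was 47.7%, 37.7% and 54.6%.

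The Leydig ratio of the summed members between libraries was 0.828 with gates as written and 0.822 thinned, the Sertoli ratio 0.943 (0.918 to 0.969, leaving out 1) with gates as written, and the myoid ratio 1.19 with stricter gates and 1.03 thinned. Thinning turned *Mvd* in Sertoli (0.945), *Hmgcs1* in myoid (0.900), *Idi1* in stroma (0.988) and *Dhcr7* in stroma (1.02), and took *Lss* in Leydig to 1.28 and *Fdps* in myoid cells to 0.953, both across 1. Thinning also took across 1, by less than their counting intervals, *Fdft1* in Sertoli cells, *Fdft1* and *Dhcr7* in myoid cells and *Cyp51* in stroma. It took *Lss* to 0.481 (0.173 to 1.17) in myoid cells without a crossing. *Lss* in myoid cells was at 1.30 with stricter gates (main 0.855) and *Idi1* in Sertoli cells at 0.906 with gates as written (main 1.06), under which *Hmgcs1*, *Fdft1* and *Lss* in Sertoli cells and *Lss* in stroma also crossed 1. So did *Lss* in Sertoli cells with doublets removed or stricter gates, and *Sqle* in myoid cells with doublets removed. Of 36 shares of Leydig cells holding a member, taken at 5000 UMIs or without thinning, 33 moved beyond the interval at 3000 UMIs. Cycling ratios became 1.0 (wild type) and 0.901 in Sertoli, 1.21 in myoid and 0.928 in stroma cells of the knockout-labelled library when thinned, and 0.860 in the last with 1 or more cycling UMIs. The smallest sums were those of macrophages (376271 and 373124 UMIs) and of germ cells of the knockout-labelled library (463254).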
